A study of Homo sapiens with 9 samples.

Results

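Immediate early genes are the genes that a cell switches on within minutes of a stimulus without first making new protein. Described here are 10 such genes: FOS, FOSB, JUN, JUNB, JUND, EGR1, ARC, RASD1, IER2 and IER5. They were chosen by symbol, and each was found once among the 56541 genes of the deposited table. The choice was made with values of these libraries in view, among them the high recovery of ARC, RASD1 and FOSB by BCLAF1 precipitation and the higher level of RASD1 after knock-down. The precipitation values of the members, and the knock-down value of RASD1, are therefore given as a description with no test.

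The cells were MOLM-13, an established human acute myeloid leukaemia line that carries a KMT2A fusion and an activated FLT3 receptor, labelled as derived from peripheral blood. There were 3 groups of 3 libraries. The shCONTROL group was total RNA sequenced from cells that carry a control short hairpin, the shBCLAF1 group the same from cells whose hairpin targets BCLAF1, and the RIP (RNA immunoprecipitation) group was RNA that co-precipitated with the BCLAF1 protein from shCONTROL cells. BCLAF1 is a nuclear RNA-binding protein with arginine- and serine-rich stretches. All cells of all groups, controls included, had 4 days of doxycycline at 200 ng/µL, fewer cells were taken per RNA-seq sample than per RIP sample, and all samples carry the same batch label. The labels do not give the sequence of either hairpin, say whether the cells were clones or pools, or say whether replicates were separate cultures, so p-values measure only the spread between these samples. No mock precipitation was analysed here, so a high value in the RIP does not separate binding from background.

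In most cells at rest, mRNAs of immediate early genes are scarce, and they are degraded soon after a stimulus ends. Their promoters are held ready by SRF and its partners, which bind CArG boxes, and by CREB and related factors, which bind the cyclic AMP response element (CRE). FOS and JUN proteins pair through leucine zippers to form AP-1, EGR1 is a zinc-finger transcription factor, and in myeloid cells AP-1 and EGR1 are best known for their part in monocyte and macrophage differentiation. ARC is a cytoskeleton-associated protein studied mostly in neurons, RASD1 is a small GTPase first found through its induction by glucocorticoids, and IER2 and IER5 are nuclear proteins induced early by serum.

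The upstream regions of members are shown because genes of both directions after knock-down share a sequence element there. RefSeq sequences (build GRCh38.p14) of the 250 bases before the start site matched 9 of the 10 members, the exception being ARC. The CRE half-site TGACG, searched on both strands, was found in 8 of the 9, all but IER5, and in 21.2% of the 35116 promoters of the same length. The full CRE TGACGTCA, which contains the half-site on both strands, was found in JUND alone (1.65% of all promoters), and the CArG box in EGR1 alone (1.16%). The TATA element TATAA was found in 6 of 9 (18.9% of all promoters), and the AP-1 site TGANTCA in 0 of 9 (6.57%). Sequence beyond these 250 bases was not searched, so a CArG box or other site farther upstream would not appear here. A window of 60 bases from each of 6 members follows, 5′ to 3′ on the gene's own strand. FOS, FOSB and RASD1 were higher after knock-down, and JUN, JUND and EGR1 were lower. Capitals mark the CRE half-site (CGTCA when it lies on the other strand), the full CRE in JUND, the CArG box in EGR1 and the TATA element in FOS and FOSB.
FOS, chr14:75278754-75278813, plus strand: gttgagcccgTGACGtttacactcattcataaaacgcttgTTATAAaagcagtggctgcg
FOSB, chr19:45467926-45467985, plus strand: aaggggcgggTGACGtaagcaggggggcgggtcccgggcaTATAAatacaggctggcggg
RASD1, chr17:17496479-17496538, minus strand: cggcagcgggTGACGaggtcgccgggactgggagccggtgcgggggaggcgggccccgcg
JUN, chr1:58784121-58784180, minus strand: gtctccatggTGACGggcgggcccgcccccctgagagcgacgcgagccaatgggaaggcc
JUND, chr19:18281773-18281832, minus strand: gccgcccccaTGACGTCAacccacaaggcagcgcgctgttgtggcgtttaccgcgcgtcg
EGR1, chr5:138465334-138465393, plus strand: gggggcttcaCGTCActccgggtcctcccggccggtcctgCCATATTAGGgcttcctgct

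In FOS and FOSB the half-site began 64 and 60 bases before the start site, with the TATA element between it and the start. In JUND the full CRE began 200 bases before the start site. EGR1 held 2 CArG boxes, beginning 105 and 83 bases before the start site, of which the window shows the first. Upstream GC content ran from 62.0% in JUN to 78.0% in RASD1, against a median of 58.0% over all promoters. The TATA element was in all 3 members that were higher after knock-down (FOS, FOSB and RASD1), in 1 of the 4 that were lower (JUND) and in both matched members that were not called. The half-site was in all 3 and all 4. These are letters in a window, with no binding measured and no test of the split.

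**Figure D1:**
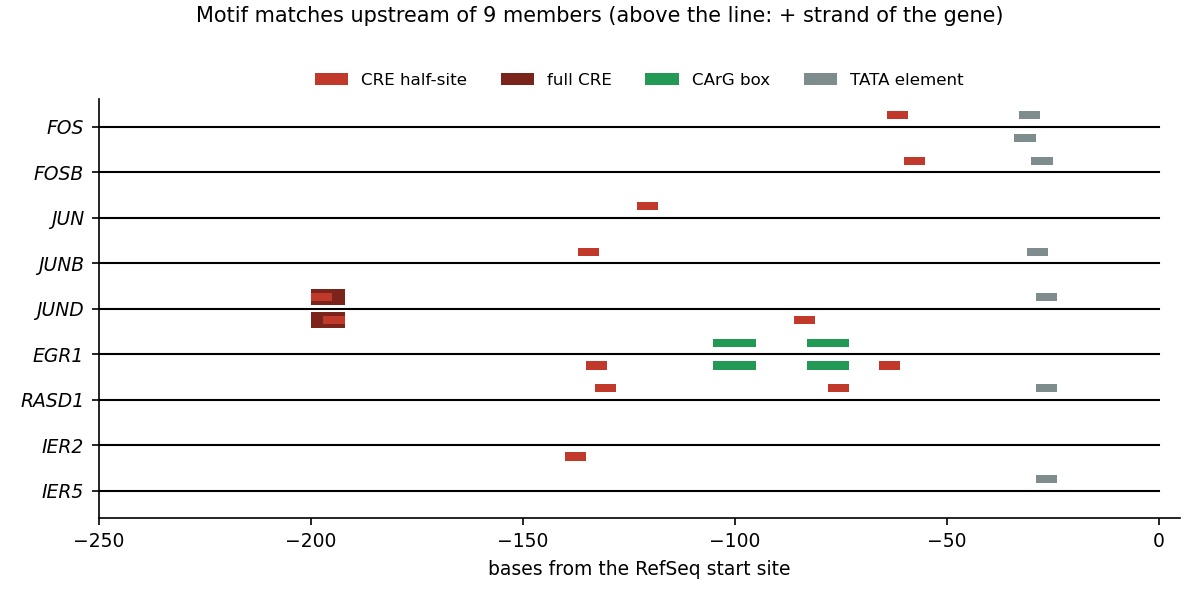
Motif matches in the 250 bases before the RefSeq start site of 9 members, one line per gene, with the distance from the start site in bases on the horizontal axis. Bars above a line are matches on the gene's own strand and bars below it matches on the other strand; a CRE half-site is present in all but IER5, and both CArG boxes are in EGR1.

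Totals ran from 25819144 to 36635268 estimated counts per library, with the smallest in RIP replicate 1. How the counts were derived from the reads is not given in the sources used here, so their absolute scale, and the precision read from a low count, is uncertain. None of the 10 members stood at 0 in any library, and all 10 passed the filter on low counts in both comparisons. Levels are given as CPM, counts relative to the library's total, with TMM scaling, a correction for library composition. Transcript lengths were not used, so levels are compared between groups for the same gene and never between genes. BCLAF1 itself stood at 322 ± 8.41 CPM in the controls and fell to 113 ± 12.5 after knock-down (SD, n = 3 each; edgeR adjusted p 2.06e-04). All 10 markers of myeloid leukaemia cells, such as CD33, SPI1 and MPO, were present in each group. The 5 neuronal markers stood at 0 in all 9 libraries, as did the T cell genes CD3E, CD3G and CD2 and the B cell genes MS4A1, CD79B and PAX5. The summed level of the 8 T and NK cell markers ranged over 55.3 to 58.5 CPM (shCONTROL), 38.9 to 47.7 (shBCLAF1) and 38.3 to 42.3 (RIP), mostly from TRAC and NKG7; TRAC was lower after knock-down (log2 fold change -0.97) and NKG7 lower in the RIP (-2.59). The 5 B cell markers summed to at most 3.32 CPM and the 8 epithelial and fibroblast markers to at most 3.62 in any library, with KRT18 the only one of the latter tested and higher after knock-down (1.07; edgeR adjusted p 0.0736 with all 9 libraries in 1 fit). All 6 erythroid markers were at 0 in the RNA-seq, while in the RIP HBA2 measured 38.9, 0 and 57.6 CPM and HBA1, its near-identical copy, 2.59, 1.24 and 2.67 in replicates 1, 2 and 3.

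**Figure D2:**
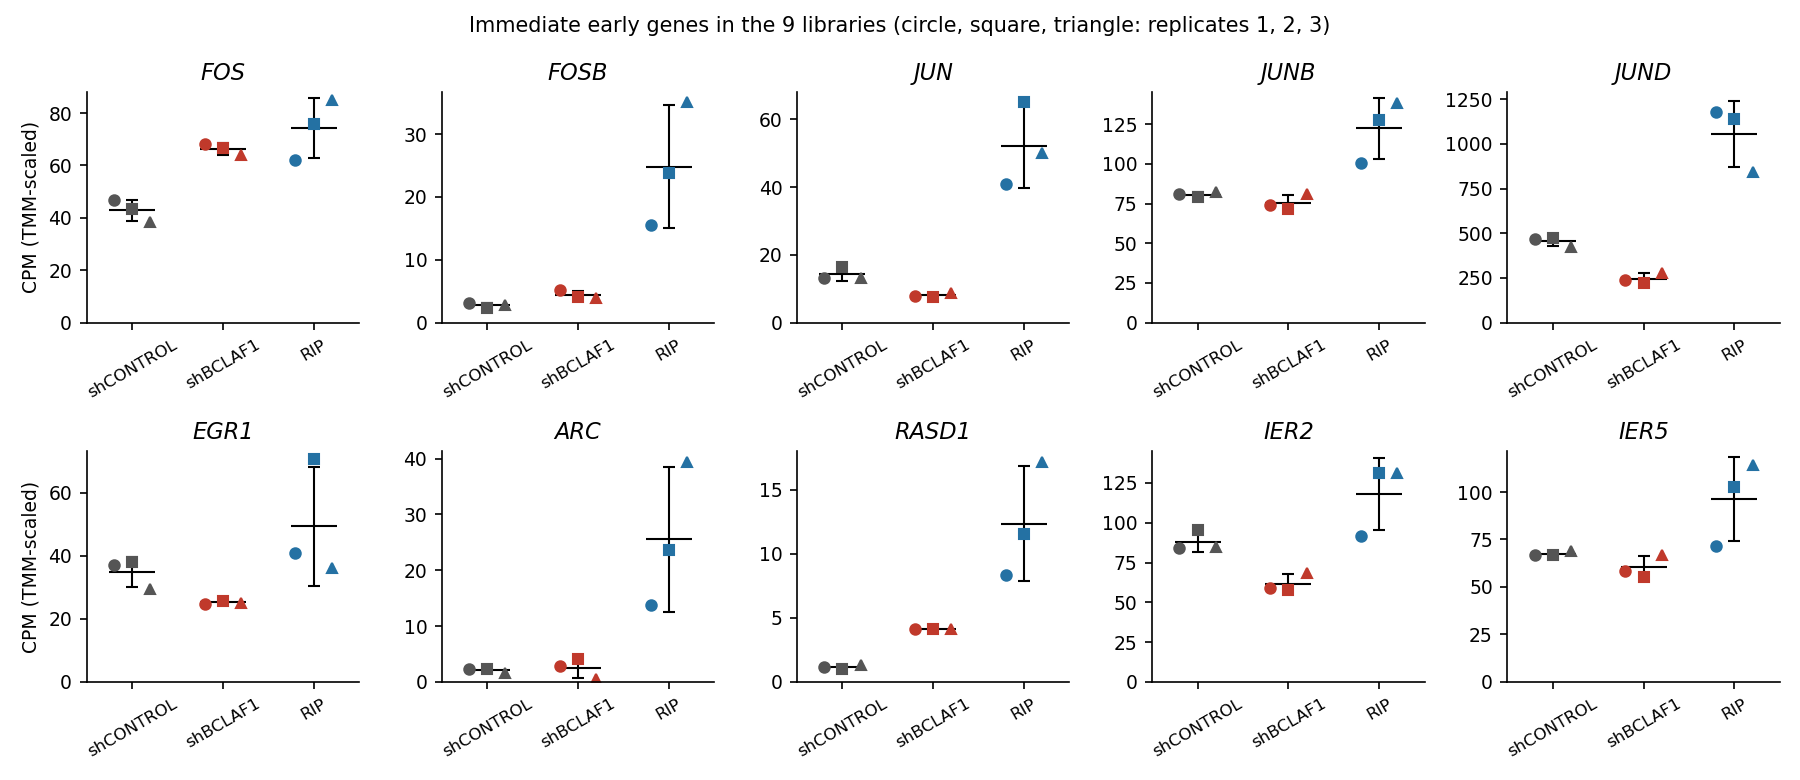
Level of each immediate early gene in CPM in the 9 libraries, one panel per gene with its own axis from 0; circles, squares and triangles are replicates 1, 2 and 3, and the bar with whiskers is the mean ± SD of 3 libraries. FOS, FOSB and RASD1 lie higher in shBCLAF1 than in shCONTROL, JUN, JUND, EGR1 and IER2 lie lower, and the RIP libraries have the highest mean for every gene.

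The first question was how RNA levels differ once BCLAF1 is reduced. The members split: FOS and FOSB rose, JUN, JUND, EGR1 and IER2 fell, and JUNB, IER5 and ARC did not pass the test. RASD1 stood highest in relative terms, at 353% of the control. Of the 16961 genes tested, 15.5% were called higher and 16.9% lower by edgeR's quasi-likelihood test (Benjamini-Hochberg adjusted p below 0.05, over the whole table), against 2 and 4 of the 9 members other than RASD1. In either direction 6 of these 9 passed, with 32.3% of all genes. Groups did not overlap for the same 6 members, nor for RASD1, as was so for 24.2% of genes on the higher and 25.1% on the lower side, 49.3% in all. In bulk RNA, a change in the share of cells that express a gene and a change in RNA per cell cannot be told apart. The median log2 fold change of the 10 members was -0.13, and that of all genes 0.02. Because the members were chosen with earlier results known, these counts describe the 10 genes and nothing beyond them.

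The FOS proteins are the AP-1 partners that cannot pair with themselves and need a JUN protein. FOS measured 46.7, 43.4 and 38.5 CPM in shCONTROL replicates 1, 2 and 3 and 68.2, 66.5 and 64.0 CPM in shBCLAF1. Every knock-down library lay above every control library. The log2 fold change was 0.63 (SE 0.08, edgeR adjusted p 0.00190), and FOS passed under each of 11 alternatives, with a log2 fold change of 0.57 to 0.71. FOSB held 77 to 109 estimated counts in the controls. It measured 3.09, 2.28 and 2.81 CPM in shCONTROL and 5.13, 4.10 and 3.85 in shBCLAF1, again without overlap. Its log2 fold change of 0.67 (SE 0.18, edgeR adjusted p 0.0299) was as large as that of FOS but less certain. The call was lost without shCONTROL replicate 2 or 3 and without shBCLAF1 replicate 1 or 2 (edgeR adjusted p 0.0645 to 0.0774, log2 fold change 0.54 to 0.71) and in a single fit of all 9 libraries (0.173), within a range of 0.0197 to 0.173 over 11 alternatives.

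The JUN proteins can pair with each other or with FOS proteins, and the genes JUN, JUNB and JUND have no intron. JUN measured 13.1, 16.5 and 13.1 CPM in shCONTROL and 7.78, 7.59 and 8.65 in shBCLAF1, so the groups did not overlap. JUN fell by 0.82 on the log2 scale (SE 0.12, edgeR adjusted p 0.00386), to 56.2% of the control. JUND is the JUN gene that cells express most steadily without a stimulus, and it fell about as far. It measured 469, 476 and 423 CPM in shCONTROL and 236, 222 and 280 in shBCLAF1, which is 54.0% of the control. JUND fell by 0.89 on the log2 scale (SE 0.10, edgeR adjusted p 0.00124). Both genes passed under all 11 alternatives, with adjusted p no higher than 0.0216 for JUN and 0.0134 for JUND. JUNB, which often opposes JUN in the control of growth, measured 81.1, 78.9 and 82.1 CPM in shCONTROL and 74.1, 71.4 and 80.9 in shBCLAF1. These groups overlapped through shBCLAF1 replicate 3. Its log2 fold change was -0.09 (SE 0.05, edgeR adjusted p 0.258), and without that library it was -0.14 with an adjusted p of 0.0433, in a range of 0.0433 to 0.694 over 11 alternatives.

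EGR1 measured 37.1, 38.1 and 29.5 CPM in shCONTROL and 24.9, 25.7 and 25.2 in shBCLAF1. The knock-down libraries were close to each other and all under the lowest control. EGR1 fell by 0.46 on the log2 scale (SE 0.10, edgeR adjusted p 0.0180), to 72.4% of the control. Its call depended on which libraries were kept, and it held without shCONTROL replicate 3 (log2 fold change -0.56, edgeR adjusted p 0.00476). It was lost without shCONTROL replicate 1 or 2 or without any 1 of the 3 shBCLAF1 libraries (edgeR adjusted p 0.0502 to 0.0713, log2 fold change -0.48 to -0.39) and in the fit of all 9 libraries (0.253), within a range of 0.00109 to 0.253 over 11 alternatives.

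IER2 measured 83.8, 95.6 and 84.8 CPM in shCONTROL and 59.1, 57.9 and 68.5 in shBCLAF1, with no overlap. IER2 fell by 0.51 on the log2 scale (SE 0.09, edgeR adjusted p 0.00614), and passed without any 1 library (at most 0.0264) but not in the fit of all 9 (0.0529). IER5 measured 67.1, 66.9 and 68.7 CPM in shCONTROL and 58.3, 55.5 and 67.0 in shBCLAF1. The replicates of IER5 in shCONTROL differed by little, and shBCLAF1 replicate 3 lay within their range. Its log2 fold change was -0.16 (SE 0.07, edgeR adjusted p 0.155). Without shBCLAF1 replicate 3 it was -0.24 with an adjusted p of 0.0119, in a range of 0.0119 to 0.601 over 11 alternatives.

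ARC and RASD1 were the members with the fewest counts. ARC held 84, 76 and 55 counts in shCONTROL and 109, 155 and 16 in shBCLAF1, or 2.38, 2.25 and 1.53 CPM against 2.87, 4.10 and 0.436. The knock-down libraries lay on both sides of the controls, and replicate 3 was the lowest of all. The log2 fold change of 0.26 (SE 0.71, edgeR adjusted p 0.810) was smaller than this spread. It was 0.75 without shBCLAF1 replicate 3 and -0.30 without replicate 2, with adjusted p of 0.0966 to 0.950 over 11 alternatives, so no direction can be given for ARC. RASD1 held 41, 34 and 48 counts in shCONTROL and 157, 156 and 151 in shBCLAF1. In CPM these were 1.16, 1.01 and 1.33 against 4.13, 4.12 and 4.12. Within shBCLAF1 this was the smallest log2 range among the members, while in shCONTROL the range of RASD1 was 0.39, with 0.04 in IER5. The log2 fold change of RASD1 was 1.78 (SE 0.15), given without a test, and 1.69 to 1.88 over 11 alternatives.

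**Figure D3:**
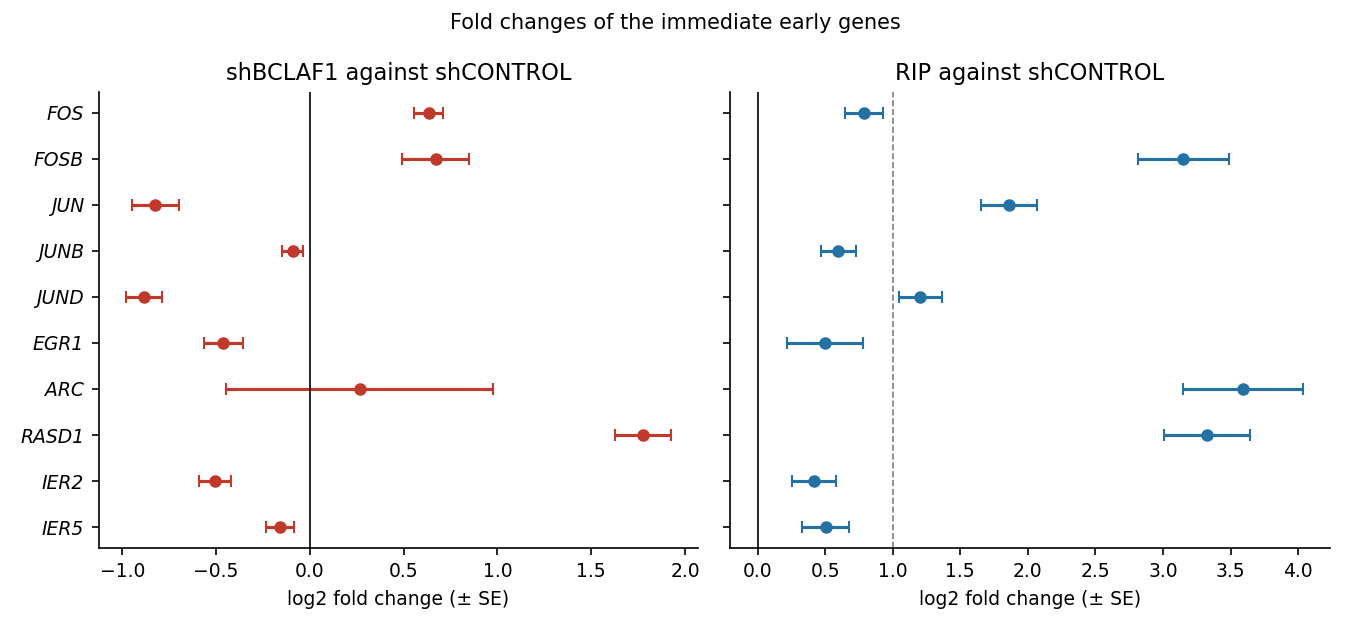
Log2 fold change of each immediate early gene (points, with ± SE) after knock-down (left) and in the RIP (right), each against the same 3 shCONTROL libraries; the dashed line marks a log2 fold change of 1. After knock-down the genes lie on both sides of 0, from -0.89 for JUND to 1.78 for RASD1, and in the RIP from 0.42 for IER2 to 3.59 for ARC.

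The 10 myeloid leukaemia markers went both ways after knock-down, with a median log2 fold change of -0.04. Their summed level was 2113 to 2223 CPM in shCONTROL and 3943 to 4308 in shBCLAF1, with no marker at 0 in either group. LYZ, which codes for lysozyme, took most of that difference, with 671 to 785 CPM in shCONTROL and 2433 to 2818 in shBCLAF1. Of the 10, 4 were higher, among them LYZ (log2 fold change 1.86) and SPI1 (0.37), and 3 were lower, among them MEIS1 (-0.86) and HOXA9 (-0.43), beside 15.5% and 16.9% of all genes. SPI1 missed the threshold when all 9 libraries were fitted together (edgeR adjusted p 0.169; range 2.08e-08 to 0.169 over 11 alternatives). Their part in the changes of the immediate early genes was not tested. In the RIP the same markers summed to 1917 to 2171 CPM. Of the 10, 0 were enriched and 1, LYZ (-3.97), was depleted, beside 11.0% and 13.5% of all genes.

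The second question was which RNAs came down with BCLAF1 more than their level in control cells would give. All 10 members had a mean above that of shCONTROL, from 134% of the control for IER2 to 1244% for ARC. The median log2 fold change was 1.00, and that of all 16727 genes tested was -0.05. Enrichment was defined as an adjusted p under 0.05 and a log2 difference of 1 or more, which 11.0% of genes met. Without regard to p, 5 of the 10 members had a log2 difference of 1 or more: ARC, RASD1, FOSB, JUN and JUND. The opposite call was made for 13.5% of genes, and a call in either direction for 24.5%. By sign alone, 0 members had a log2 difference below 0. The 11.0%, 13.5% and 24.5% also require the adjusted p, so they are not like for like with these member counts. In 8 of 10 members every RIP library lay above every control, as in 31.8% of all genes, and in 0 members was every RIP library below, as in 35.2% (67.1% in either direction). The members were chosen with RIP values known, so nothing is read from these counts.

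ARC, RASD1 and FOSB formed the top of the range. ARC measured 13.7, 23.6 and 39.4 CPM in RIP replicates 1, 2 and 3, with a log2 fold change of 3.59 (SE 0.44). RASD1 measured 8.35, 11.5 and 17.2 CPM (log2 fold change 3.33, SE 0.32). FOSB measured 15.5, 23.8 and 35.1 CPM (3.15, SE 0.34). The lowest RIP library of each gene was several times the highest control, and in each the highest RIP library held more than double the lowest, at a ratio of 2.88 in ARC, 2.06 in RASD1 and 2.26 in FOSB. With 1 library left out the log2 fold change ran from 3.15 to 3.90 in ARC, from 3.02 to 3.55 in RASD1 and from 2.83 to 3.40 in FOSB.

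JUN and JUND came next. JUN measured 40.9, 65.2 and 50.05 CPM in the RIP, or 365% of the control (log2 fold change 1.86, SE 0.21). JUND measured 1180, 1143 and 842 CPM, or 231% of the control (log2 fold change 1.21, SE 0.16). JUNB differed from both, with 101, 128 and 139 CPM and a log2 fold change of 0.60 (SE 0.13). All 3 genes stood above every control library, but JUNB stayed under the minimum of 1.

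FOS measured 62.0, 75.7 and 84.9 CPM in the RIP (log2 fold change 0.79, SE 0.14), far less than FOSB in relative terms. The RIP values of FOS overlapped those of the shBCLAF1 RNA-seq, while those of FOSB did not. IER5 measured 71.4, 103 and 114 CPM (0.50, SE 0.18), with replicate 1 barely above the controls. IER2 measured 91.7, 131 and 131 CPM (0.42, SE 0.16) and EGR1 41.1, 70.9 and 36.2 CPM (0.50, SE 0.28), and both overlapped the controls. Without RIP replicate 2 the log2 fold change of EGR1 was 0.13, so its value rested on that library.

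The RIP libraries differed from each other in a way that many members shared. In 8 of 10 members the lowest RIP library was replicate 1, which was true of 27.4% of all genes tested, and in 7 of 10 the highest was replicate 3, as in 33.9% of all genes. JUND and EGR1 were the exceptions at the low end, with replicate 3 the lowest. On the log2 scale the range over the 3 RIP libraries was 1.52 in ARC, 1.17 in FOSB, 1.04 in RASD1 and 0.97 in EGR1, and 0.45 to 0.68 in the other members. In shCONTROL the same ranges were 0.04 to 0.62. The 14 heat-shock genes, which respond to handling stress, summed to 5157, 4776 and 8414 CPM in RIP replicates 1, 2 and 3 and to 3280 to 3803 in shCONTROL, with HSPA1A and CRYAB at 0 throughout. DNAJB1, a heat-shock co-chaperone, measured 174, 164 and 246 CPM in the RIP and 50.9 to 59.8 in shCONTROL. Of the 12 heat-shock genes tested, 2 were enriched and 2 depleted, beside 11.0% and 13.5% of all genes. The depleted were HSPE1 (log2 fold change -2.33) and HSPB1 (-1.28), and the enriched were DNAJB1 (1.82) and HSPA8 (1.32). HSPB1 missed the minimum, at -0.88, with both RNA-seq groups averaged as the control. HSPA8 lost its call without any 1 of the shCONTROL libraries (edgeR adjusted p 0.0656 to 0.0793). It fell short of 1 once RIP replicate 3 was left out (0.85). The part of heat-shock genes, or of the globin RNA in replicates 1 and 3, in the values of the members was not tested.

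**Figure D4:**
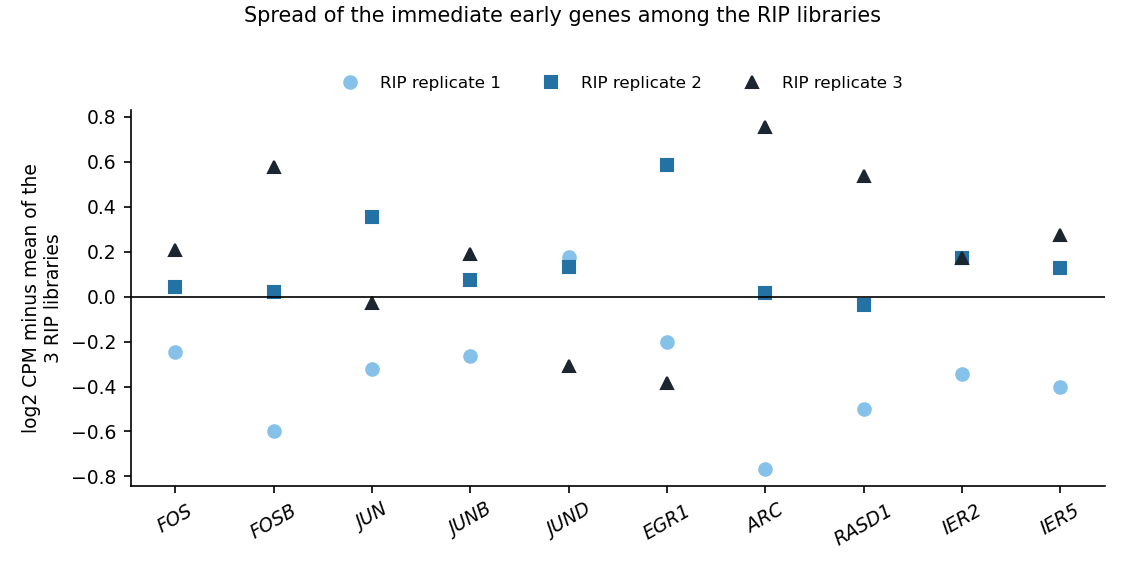
Log2 CPM of each immediate early gene in RIP replicates 1 (circles), 2 (squares) and 3 (triangles), minus the mean of the 3 RIP libraries. Replicate 1 is the lowest in 8 of 10 genes, and ARC, FOSB and RASD1 are spread over a log2 range above 1.

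Both comparisons share the control libraries, so the values of a gene in each are set side by side without a correlation. FOS, FOSB and RASD1 stood above the control in both, with log2 fold changes after knock-down and in the RIP of 0.63 and 0.79, 0.67 and 3.15, and 1.78 and 3.33. JUN and JUND fell after knock-down and stood above the control in the RIP, at -0.82 and 1.86 and at -0.89 and 1.21. EGR1 and IER2 also fell, at -0.46 and 0.50 and at -0.51 and 0.42, but their RIP libraries overlapped the controls. All 10 members had a RIP log2 fold change above 0, so that direction sets none of these genes apart.

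The patterns of the members over the 9 libraries were compared as centred log2 CPM, by the root mean square difference. JUNB and IER5 were the closest pair, at 0.08, followed by IER2 and IER5 at 0.16. FOS and ARC were the farthest apart, at 1.71. Each member lay 0.45 (JUNB) to 1.23 (ARC) from the members' mean profile. Among 12907 other genes of at least 1 CPM the nearest to that mean were KIF2C (0.08), ZC3H15 (0.09), NRDC (0.10), MAP3K4 (0.11) and KDM2B (0.11), all nearer than any member, so the mean stands for no single member.

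Genes that are also known as immediate early genes but were not among the 10 were taken from a list of 46, of which 45 were measured and 38 tested. This list, like the other gene lists here, was drawn up with earlier results of these data known. Counts and adjusted p-values for the lists therefore describe the listed genes and nothing beyond them. In the RIP, 10 of 38 were enriched and 1 depleted, beside 11.0% and 13.5% of all genes, and their median log2 fold change was 0.45. The most certain were NFIL3, a transcriptional repressor (1.93, SE 0.08, edgeR adjusted p 1.42e-04), PLK2, a kinase of centriole duplication (2.26, adjusted p 3.93e-04), and KLF4, a transcription factor of monocyte differentiation (1.37, adjusted p 3.82e-04). NFIL3 stood at 91.4 ± 4.01 CPM in the RIP against 23.8 ± 1.04 in the controls (SD, n = 3 each), and did not have the spread among RIP libraries seen in ARC. SGK1, GADD45B, PPP1R15A, HBEGF, DUSP1, ATF3 and NR4A1 were the other enriched genes, at 1.19 to 2.14. CITED2 was depleted (-1.01), a value at the edge of the minimum, and lost the call in 5 of 12 alternatives: without shCONTROL replicate 1, RIP replicate 2 or RIP replicate 3, with DESeq2 and in the fit of all 9 libraries.

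After knock-down, 9 of these 38 genes were higher and 11 lower, beside 15.5% and 16.9% of all genes, with a median log2 fold change of -0.22. HBEGF, a growth factor of the EGF family, rose from 10.5 ± 0.0865 to 28.9 ± 0.551 CPM (SD, n = 3 each; log2 fold change 1.46, edgeR adjusted p 9.73e-05), and SOCS3, an inhibitor of cytokine signalling, rose by 1.18. MYC, which drives cell growth, fell by 0.88 (adjusted p 9.73e-05) and RGS1, an inhibitor of G-protein signalling, fell by 2.35 (adjusted p 4.48e-04). As among the members, both directions were present.

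**Figure D5:**
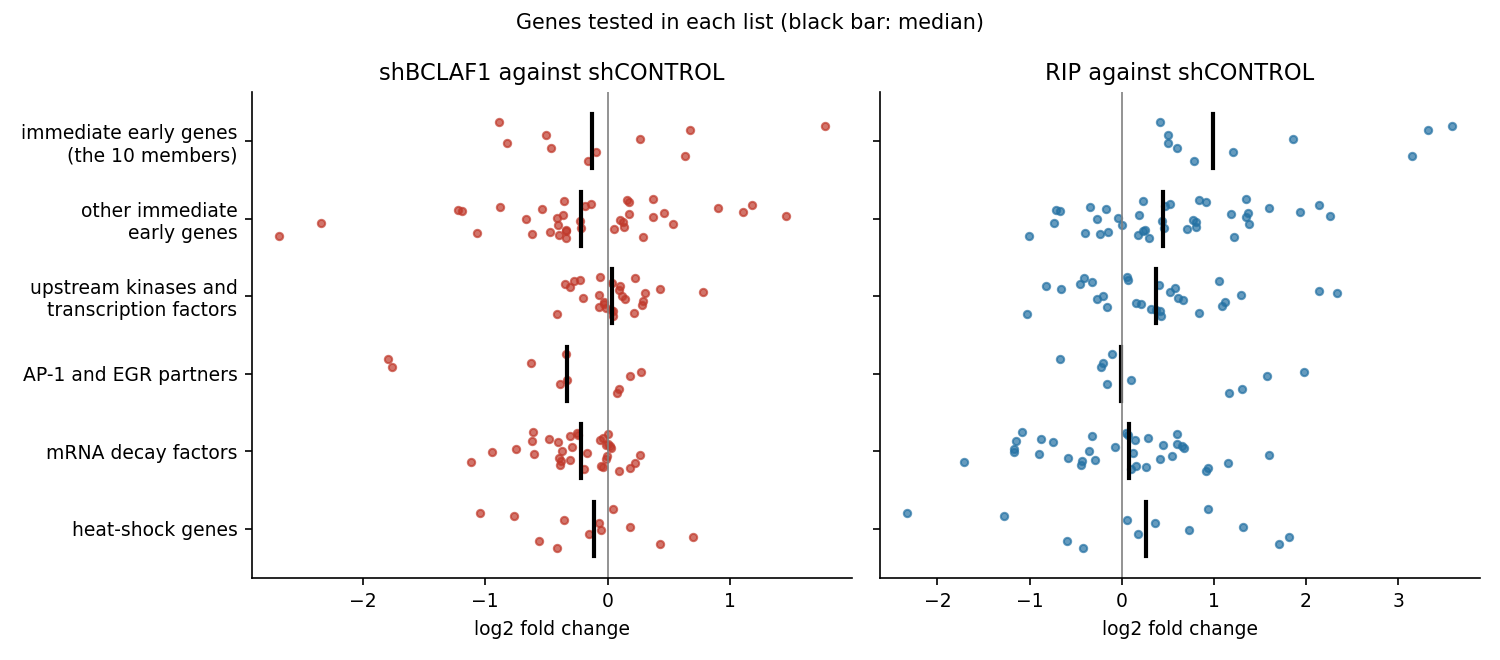
Log2 fold change of every tested gene of 6 lists (points; vertical position within a list is arbitrary) after knock-down (left) and in the RIP (right), with the median as a black bar. The medians of the immediate early genes and of the other immediate early genes in the RIP are 1.00 and 0.45; after knock-down the medians are -0.13 and -0.22.

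Among partners of AP-1 and EGR proteins, 10 of 12 genes were tested, and after knock-down 6 were lower and 1, MAFK, was higher, beside 16.9% and 15.5% of all genes. JDP2, a repressor that pairs with JUN proteins, fell from 33.5 ± 1.60 to 9.78 ± 0.740 CPM (SD, n = 3 each; log2 fold change -1.77, edgeR adjusted p 1.37e-04). BATF3, a partner of JUN proteins in immune cells, fell from 14.4 ± 0.658 to 4.11 ± 0.279 CPM (-1.80, adjusted p 1.81e-04). ATF2 fell by 0.33 and ATF7 by 0.39, the latter missing the threshold when all 9 libraries were fitted together (edgeR adjusted p 0.0992; range 1.14e-09 to 0.0992 over 11 alternatives). JDP2, BATF3 and BATF were enriched in the RIP, with log2 fold changes of 1.58, 1.17 and 1.98. FOSL1 and FOSL2, the other genes of the FOS family, were named after their values were seen, so they are given without a test. Both belong to the list of other immediate early genes above. Their log2 fold changes after knock-down were 0.53 and 0.37.

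Of the kinases and transcription factors that act upstream of immediate early genes, 27 were tested after knock-down; 7 were higher and 4 lower, beside 15.5% and 16.9% of all genes, with a median log2 fold change of 0.04. SRF, the factor that binds CArG boxes, rose by 0.29 (edgeR adjusted p 0.00381), but not in the fit of all 9 libraries (0.170; range 8.71e-08 to 0.170 over 11 alternatives). MAPK14, the p38 kinase, rose by 0.78 (edgeR adjusted p 1.85e-04), RPS6KA4, a kinase downstream of p38 and ERK, rose by 0.43, and RPS6KA1, a kinase downstream of ERK, fell by 0.41. In the RIP 3 of 29 were enriched and 0 depleted, beside 11.0% and 13.5% of all genes. The 3 were EP300, a histone acetyltransferase (log2 fold change 2.14), RPS6KA4 (1.12) and CREM (1.09). With both RNA-seq groups averaged as the control, RPS6KA4 was under the minimum, at 0.92. CREM, at 1.84 to 4.16 CPM in shCONTROL, lost its call in 7 of 12 alternatives: without shCONTROL replicate 2 or 3, without any 1 of the RIP libraries (edgeR adjusted p 0.0524 to 0.119, log2 fold change 0.83 to 1.25), with total counts and with no filter.

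Of 34 genes that act on mRNA decay or stability, 17 were lower and 3 higher after knock-down, beside 16.9% and 15.5% of all genes. Their median log2 fold change was -0.22, and their part in the levels of the members was not tested. ZFP36L1, which binds AU-rich elements and recruits deadenylases, fell by 1.12 (edgeR adjusted p 0.00115). DCP1A, a cofactor of decapping, fell by 0.94 (adjusted p 2.39e-04), PAN2, a deadenylase, by 0.75 (adjusted p 8.62e-04) and EXOSC1, an exosome subunit, by 0.60 (adjusted p 7.79e-04). In the RIP 2 of 34 were enriched, EXOSC10 (1.60) among them, beside 11.0% of all genes. Depleted were 5, among them EXOSC4 (-1.72), EXOSC5 (-1.17) and HNRNPD (-1.15), beside 13.5% of all genes. EXOSC5 missed the minimum, at -0.97, against both RNA-seq groups averaged. Of the 12 heat-shock genes tested after knock-down, 2 were higher and 5 lower, beside 15.5% and 16.9% of all genes. HSPA1B (0.70) was among the higher, and HSPA4L (-1.04), HSPB1 (-0.77) and HSPD1 (-0.56) were among the lower. HSPA1B has a near-identical copy, HSPA1A, listed at 0, so which copy its counts came from is uncertain. Of 5 RNAs known to be retained in the nucleus, 3 were tested. MALAT1 was lower after knock-down (-0.91), beside 16.9% of all genes. None was enriched or depleted in the RIP, beside 11.0% and 13.5% of all genes, and with 3 genes nothing is read from this.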

How the data were processed

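Estimated counts per gene, without normalization, were deposited by the authors in 1 table. Per the submitters' processing notes, STAR 2.7.11b, StringTie 2.2.3 and genome build hg38 were used; annotation and counting settings are not given in the sources used here. Values were whole numbers, with 6 to 17 genes per library at 1 and 103 to 197 at 2, so they need not be tallied reads and may be scaled; none were rounded. One row named no gene and was left out. It held 2.18% to 3.75% of counts in 8 libraries and had no value in RIP replicate 1. Libraries were matched to columns through their library names. Each comparison was fitted on its own 6 libraries and the whole table with edgeR 4.0.16 (R 4.3.3): default filter on low counts, TMM, prior count 2, quasi-likelihood F-test, Benjamini-Hochberg adjustment, threshold 0.05. Standard errors came from the coefficient and its F statistic. CPM used TMM factors of all 9 libraries. Precision is limited by 25819144 to 36635268 counts per library and n = 3. Alternatives were DESeq2 1.42.0, total counts, no filter, all 9 libraries, the replicate block, each library left out, non-overlapping groups and, for the RIP, both RNA-seq groups averaged as the control. The procedure was tested on data simulated with the same fixed spread for every gene. The real libraries need not share that spread. Members and lists were chosen with earlier results of these data known. Named genes were all members, up to 4 called genes per list and comparison with the smallest adjusted p, and the 5 genes nearest to the members' mean profile; others are named where a count or group called for it.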

Additional observations from a re-analysis of the deposited data

How the results depend on the processing

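Of the 10 members, RASD1 counted though its value helped choose it, 3 were higher and 4 lower after knock-down under DESeq2, total counts, no filter, and the replicate block; the fit of all 9 libraries gave 2 higher (FOS, RASD1) and 2 lower (JUN, JUND). With 1 library left out there were 2 to 3 higher and 3 to 5 lower. In the RIP the same 5 had a log2 fold change of 1 or more under every fit, and 8 had non-overlapping groups, both as a description. The log2 fold change of ARC after knock-down was -0.11 with the replicate block and ran from -0.30 to 0.75 with 1 library left out. Over all genes, the fit of all 9 libraries gave 1129 higher and 1318 lower after knock-down. Non-overlapping groups gave 4106 genes higher after knock-down, and 5326 higher (31.8%) and 5891 lower (35.2%) in the RIP. Of the 38 other immediate early genes tested, they gave 21 higher and 7 lower in the RIP. The cause of these shifts was not tested. Whether replicate numbers pair the libraries is not given, and 3 libraries per group cannot decide it. Deviations of same-numbered libraries correlated at 0.01 to 0.07 in the knock-down and -0.02 to 0.01 in the RIP. For libraries of different number these values were -0.04 to 0.02 and -0.03 to 0.03. After knock-down the replicate block gave 2271 higher and 2538 lower genes. Total counts shifted the median of all genes in the RIP by -0.11 on the log2 scale. With both RNA-seq groups averaged as the control, the RIP log2 fold change was 0.48 for FOS, 2.28 for JUN, 1.66 for JUND and 2.45 for RASD1. The low counts of ARC, RASD1 and FOSB limit their precision.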
